A study of Mus musculus with 9 samples.

Results

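A set of 10 genes that macrophages use to take up debris and to receive growth signals were followed in microarrays of mouse lung tissue. It held the scavenger receptors Marco and Msr1, the receptor tyrosine kinases Mertk and Axl, the surface molecules Adgre1 and Siglec1, and the colony-stimulating factor genes Csf1, Csf1r, Csf2ra and Csf2rb. The 10 genes were chosen by name, for their roles, with earlier results of these data known. They make up 10 of the 19698 genes with a named probe kept in these data. Each gene was read from its brightest probe over all arrays, and all 10 were well above the local background on all 9 arrays.

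The arrays were 1-colour Agilent arrays of total RNA from lung tissue of male C57BL/6 mice, with 4 arrays labelled control and 5 labelled irradiated. The age on the labels, 10 weeks, is that of the mice entering the study and not their age when tissue was taken. The left lung was irradiated under zoletil and rompun anaesthesia. The labels list the same amounts of both drugs for the control arrays as for the irradiated arrays. Neither the radiation dose, nor the region of the lung, nor the time after exposure is given for any of these arrays. Differences of that kind between the 5 irradiated arrays therefore lie within the spread of their group. The RNA was pooled from triplicate experiments before labelling, so that p-values measure the spread between pools, and nothing in the labels says which animals entered a pool. The numbers 1 to 5 only name the arrays.

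Alveolar macrophages live on the air side of the lung and clear surfactant, particles and dying cells, and interstitial macrophages lie in the tissue between the airspaces and the vessels. Class A scavenger receptors bind modified lipoproteins, bacteria and dust. The TAM kinases (Tyro3, Axl, Mertk) recognise dying cells through the bridging proteins Gas6 and protein S, and colony-stimulating factor 1 and GM-CSF keep macrophages alive, GM-CSF being the signal on which alveolar macrophages depend.

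The sequence just before the transcription start is shown for 3 of the genes, one from each receptor class, because their base composition and motifs differ. The RefSeq promoter table (GRCm38.p6) held a window for 5 of the 10 genes: Marco, Mertk, Axl, Csf1 and Csf2ra. A pair of short motifs were searched on both strands: GAGGAA, the core of sites for the macrophage factor PU.1, and GGGCGG, the GC box bound by Sp1. On the opposite strand the former reads TTCCTC and, for the GC box, the letters read CCGCCC. The motifs do not share letters at any match. Capitals below mark the matches in the 250 bases before the start, read 5′ to 3′ on the gene's strand.

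Marco, chr1:120505025-120505274, minus strand:
Marco: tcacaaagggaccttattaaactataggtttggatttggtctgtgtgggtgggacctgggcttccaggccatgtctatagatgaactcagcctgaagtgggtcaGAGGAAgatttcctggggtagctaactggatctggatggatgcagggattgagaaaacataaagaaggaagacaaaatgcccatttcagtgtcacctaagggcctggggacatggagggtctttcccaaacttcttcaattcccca
Mertk, chr2:128698665-128698914, plus strand:
Mertk: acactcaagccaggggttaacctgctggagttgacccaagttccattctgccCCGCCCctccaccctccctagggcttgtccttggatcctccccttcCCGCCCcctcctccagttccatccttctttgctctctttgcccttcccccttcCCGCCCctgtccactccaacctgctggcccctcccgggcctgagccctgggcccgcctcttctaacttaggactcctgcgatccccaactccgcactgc
Csf2ra, chr19:61228419-61228668, minus strand:
Csf2ra: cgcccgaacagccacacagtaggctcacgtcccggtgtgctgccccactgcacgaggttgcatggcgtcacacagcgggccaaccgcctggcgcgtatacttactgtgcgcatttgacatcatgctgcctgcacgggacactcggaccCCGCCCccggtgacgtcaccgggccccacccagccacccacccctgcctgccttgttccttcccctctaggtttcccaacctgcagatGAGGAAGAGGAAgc

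The Marco window held 1 GAGGAA match, which begins 146 bases before the start, and no GC box, and its GC content was 47.6%. The Mertk window held 3 GC boxes and no GAGGAA, with a GC content of 63.6%. The Csf2ra window held 2 GAGGAA matches side by side, beginning 14 and 8 bases before the start, and 1 GC box, at a GC content of 64.8%. Of the windows not shown, that of Axl held 1 GAGGAA match and 1 GC box, at a GC content of 60%. That of Csf1 held 2 GC boxes and no GAGGAA, at 56.4%. The motifs of Mertk and Axl, both TAM kinases, thus differed. Over 32851 windows of the same length in the table, 23.3% held GAGGAA and 32.7% held GGGCGG. The matches describe these letters only, and no binding was measured.

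The members were read against what stood apart among the arrays. Control 3 had a summed level of 12 skeletal muscle markers of 168822 intensity units, against 4689 to 6204 on the other 3 of its group and 3501 to 5228 in the irradiated group. Irradiated 1 had a summed level of 12 cardiac muscle markers of 20181, against 226031 to 379109 on the other irradiated arrays and 218434 to 427741 on the control arrays. The 11 lung epithelium markers tested were present on every array, between 2238950 and 2470850 in sum. Values without irradiated 1, and without it and control 3, are given beside each member, and their part in the results was not tested.

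None of the 10 genes passed the test between the groups over all probes (limma, adjusted p under 0.05), a threshold that 0.416% of all genes passed (82 of 19698). The mean was higher on the irradiated arrays for 8 members and lower for 2, and 51.9% of all genes had a higher mean. At an unadjusted p under 0.05, 5 members were past the threshold (Msr1, Adgre1, Siglec1, Csf2rb and Mertk), all 5 of them higher, against 7.37% of all genes higher and 4.98% lower (12.3% in either direction). For Msr1, Adgre1 and Siglec1, all 5 irradiated arrays lay above all 4 control arrays, as did 3.4% of all genes, while 1.76% had all irradiated arrays below (5.15% in either direction). The median difference of the 10 members was 0.30 on the log2 scale, against 0.01 for all genes. In RNA from lung tissue, more or fewer cells of a type and more or less RNA per cell cannot be told apart.

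**Figure D1:**
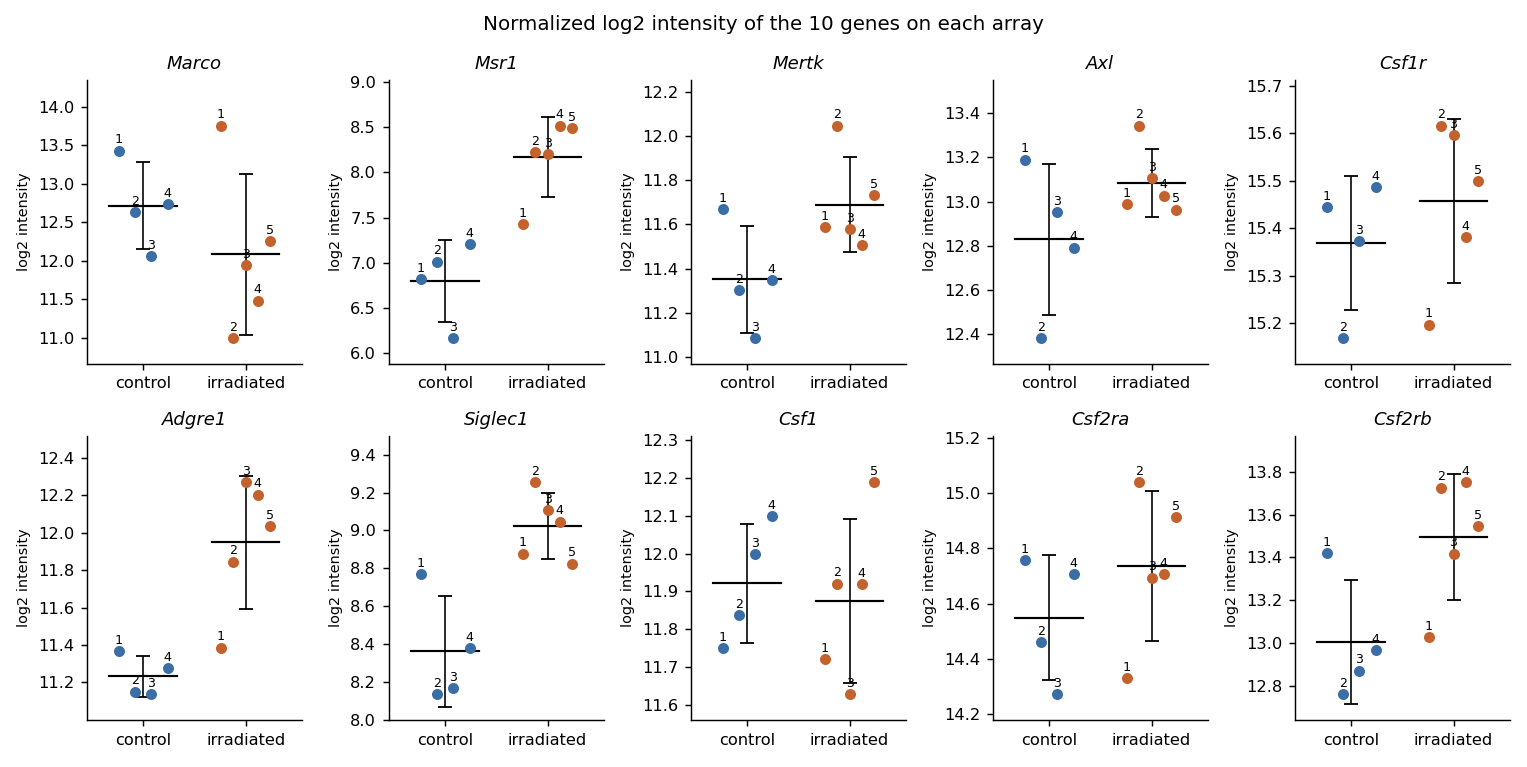
Log2 quantile-normalized signal (vertical axis, 1 panel per gene) of the 10 members on each of the 4 control and 5 irradiated arrays, with points numbered by array and the group mean and SD beside them. Msr1, Adgre1 and Siglec1 are the 3 genes whose groups do not overlap, and irradiated 1 is the lowest irradiated array for Msr1 (7.43) and the highest for Marco (13.75).

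Marco and Msr1, the class A scavenger receptors of the set, had mean differences of opposite sign. Marco, which alveolar macrophages carry and which binds inhaled particles, had log2 values of 13.43, 12.63, 12.06 and 12.74 on control arrays 1 to 4 and of 13.75, 10.99, 11.94, 11.48 and 12.25 on irradiated arrays 1 to 5. Irradiated 1 held the highest value of all 9 arrays, and irradiated 2, 3 and 4 lay below every control array. The mean went from 12.71 ± 0.56 (SD, n = 4) to 12.08 ± 1.05 (SD, n = 5), a difference of −0.63 (SE 0.49, 95% confidence interval −1.73 to 0.47, limma adjusted p = 0.773). The spread of the irradiated arrays was thus larger than the difference. Without irradiated 1 the difference was −1.05 (limma adjusted p = 0.226), and without irradiated 1 and control 3 it was −1.27 (limma adjusted p = 0.168). It shrank to −0.39 without control 1 and to −0.36 without irradiated 2.

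Msr1, the scavenger receptor that takes up modified lipoproteins, had log2 values of 6.82, 7.01, 6.16 and 7.20 on control arrays 1 to 4 and of 7.43, 8.23, 8.20, 8.52 and 8.49 on irradiated arrays 1 to 5. All irradiated arrays were above all control arrays, with irradiated 1 the nearest to them. The difference was 1.38 (SE 0.28, 95% confidence interval 0.75 to 2.00), a 2.59-fold higher mean, and the limma adjusted p was 0.084. The second probe of Msr1 gave a difference of 1.33 (limma adjusted p = 0.076), also without overlap. Msr1 passed the threshold without irradiated 1 (difference 1.56, limma adjusted p = 0.023), where 1.65% of all genes passed, and without irradiated 1 and control 3 (difference 1.35, limma adjusted p = 0.037), where 0.558% did. Msr1 was the dimmest of the members, at 71.6 to 147 intensity units on the control arrays. The size of its difference varied with the processing. It was 0.99 with normexp background correction (limma adjusted p = 0.059) and 1.17 with 75th-percentile scaling (limma adjusted p = 0.158). In the authors' normalized table the difference was 0.88 (limma adjusted p = 0.816).

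Within an array, log2 Marco minus log2 Msr1 was 6.61, 5.62, 5.90 and 5.54 on control arrays 1 to 4 and 6.32, 2.77, 3.74, 2.96 and 3.76 on irradiated arrays 1 to 5. Irradiated arrays 2 to 5 lay below all control arrays, and irradiated 1 lay among them. This contrast was chosen after the values had been seen and is given without a test, and its level cannot be read as a ratio of the 2 transcripts because it compares different probes.

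Among the other scavenger receptors, 11 of 13 listed genes could be tested, and 0 passed the threshold. Of these, 7 had a higher and 4 a lower mean, with a median difference of 0.28. Without control 3 that median was 0.43, and without irradiated 1 it was 0.37. The largest differences were in the oxidised lipoprotein receptor Olr1 (0.92, limma adjusted p = 0.148), the mannose receptor Mrc1 (0.60, adjusted p = 0.065) and the lysosomal membrane receptor Scarb2 (0.57, adjusted p = 0.092). In each of these 3 genes the groups did not overlap. Mrc1 spanned 12.28 to 12.76 in the control group and 12.89 to 13.15 in the irradiated group. At the other end stood Scara5, a ferritin receptor, at −0.70 (adjusted p = 0.569), the fatty acid receptor Cd36 at −0.47 (adjusted p = 0.423) and Scara3 at −0.25 (adjusted p = 0.576). The scavenger receptors thus lay on both sides of 0, as Marco and Msr1 did.

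**Figure D2:**
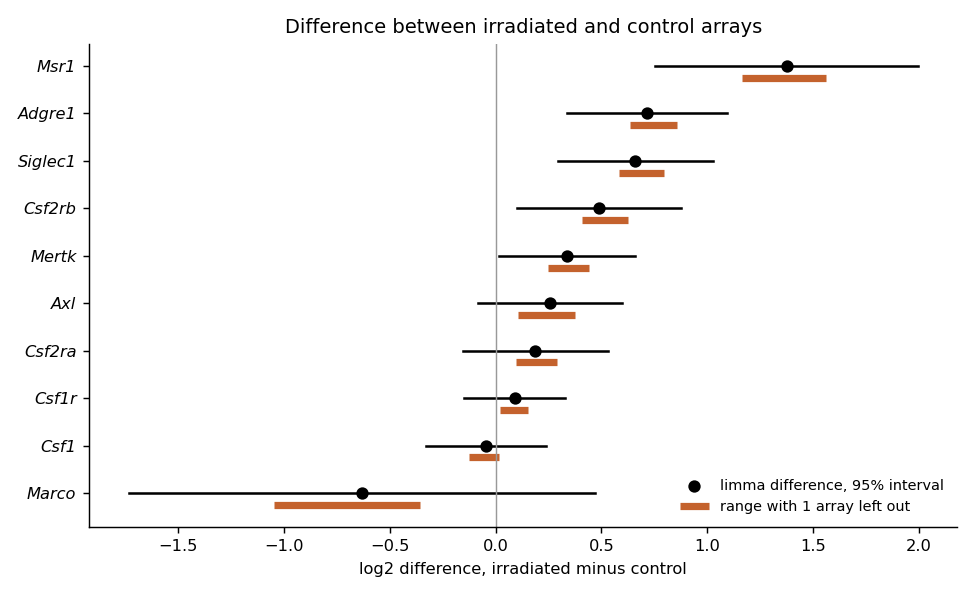
Difference of the irradiated from the control mean (horizontal axis, log2) with its 95% confidence interval from limma (black) for the 10 members, and the range of the difference with 1 array left out (orange). The intervals of Msr1 (0.75 to 2.00), Adgre1, Siglec1, Csf2rb and Mertk lie above 0 before adjustment, and that of Marco (−1.73 to 0.47) is the widest.

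Mertk and Axl, the TAM kinases among the members, had differences of 0.34 and 0.26, which did not pass the threshold. Mertk, through which macrophages engulf dying cells, had log2 values of 11.67, 11.30, 11.09 and 11.35 on control arrays 1 to 4 and of 11.59, 12.05, 11.58, 11.51 and 11.73 on irradiated arrays 1 to 5. Control 1 lay within the irradiated range, and the other 3 control arrays lay below it. The difference was 0.34 (SE 0.14, 95% confidence interval 0.02 to 0.66, limma adjusted p = 0.467). It was 0.36 without irradiated 1 and 0.27 without irradiated 1 and control 3. Axl, which serves the same ligand Gas6 and is found on alveolar macrophages, had log2 values of 13.19, 12.38, 12.95 and 12.79 on the control arrays and of 12.99, 13.34, 13.11, 13.03 and 12.96 on the irradiated arrays. Its irradiated arrays lay close together (SD 0.15, n = 5) inside a wider control range (SD 0.34, n = 4) but for irradiated 2, and the difference was 0.26 (SE 0.15, 95% confidence interval −0.09 to 0.60, limma adjusted p = 0.662). It rested in part on control 2, without which it was 0.11, and it was 0.28 without irradiated 1 and 0.32 without irradiated 1 and control 3.

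Of 16 listed genes of TAM ligands and the uptake of dying cells, 0 passed the threshold, 12 had a higher and 4 a lower mean, and the median difference was 0.18. Both bridging ligands of the TAM kinases were higher without overlap of the groups. Gas6 spanned 15.43 to 15.93 in the control group and 15.97 to 16.59 in the irradiated group, a difference of 0.58 (SE 0.15, limma adjusted p = 0.163). Pros1, which encodes protein S, was at most 12.36 on any control array and at least 12.58 on any irradiated array, a difference of 0.49 (SE 0.12, adjusted p = 0.144). Mfge8, a bridging protein that hands dying cells to integrins, differed by 0.66 (adjusted p = 0.166) with no overlap. The third TAM kinase, Tyro3, had a difference of the opposite sign, with 12.19 to 12.82 in the control group and 11.53 to 12.09 in the irradiated group, a difference of −0.68 (SE 0.16, adjusted p = 0.137) with no overlap. The phosphatidylserine receptor Timd4 (−0.09, adjusted p = 0.964) and the integrin subunit Itgb3 (−0.20, adjusted p = 0.680) overlapped between the groups. The 3 kinases therefore did not move together, with the mean of Tyro3 lower and those of Mertk and Axl higher. None of these differences passed the threshold in the comparison of all arrays. With the scan pairs set out below as a fixed and a random block, Mertk passed (limma adjusted p = 0.044 and 0.029). Axl did not (limma adjusted p = 0.272 and 0.173). Of the 16 listed genes, 2 passed higher with the fixed block, and 5 higher and 1 lower with the random block. Over all genes, 2.26% passed higher and 1.56% lower with the fixed block, and 5.65% higher and 3.8% lower with the random block.

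Adgre1 and Siglec1 are surface molecules by which macrophages are recognised, and both had higher means. Adgre1, which encodes the surface antigen most used to recognise mouse macrophages, had log2 values of 11.37, 11.15, 11.14 and 11.28 on control arrays 1 to 4 and of 11.39, 11.85, 12.27, 12.20 and 12.04 on irradiated arrays 1 to 5. The control arrays were close together (SD 0.11, n = 4), and irradiated 1 exceeded the highest of them only slightly. The difference was 0.72 (SE 0.17, 95% confidence interval 0.34 to 1.09), a 1.64-fold higher mean, with a limma adjusted p of 0.138. Without irradiated 1 it was 0.86 and passed the threshold (limma adjusted p = 0.016), as it did without irradiated 1 and control 3 (0.82, limma adjusted p = 0.049). In the authors' normalized table it was 0.43 (limma adjusted p = 0.877). A second probe gave 0.66 (adjusted p = 0.191), with some overlap.

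Siglec1, the sialic acid receptor of resident and interferon-exposed macrophages, had log2 values of 8.77, 8.13, 8.17 and 8.38 on control arrays 1 to 4 and of 8.88, 9.26, 9.11, 9.05 and 8.82 on irradiated arrays 1 to 5. The groups did not overlap, with control 1 the nearest to the irradiated arrays. The difference was 0.66 (SE 0.16, 95% confidence interval 0.29 to 1.03), a 1.58-fold higher mean, with a limma adjusted p of 0.159. It was 0.70 (limma adjusted p = 0.127) without irradiated 1 and 0.63 (adjusted p = 0.270) without irradiated 1 and control 3. A second, dimmer probe gave 0.43 (adjusted p = 0.688), with overlap.

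Of 9 other Siglecs and adhesion receptors, 0 passed the threshold, with 2 higher and 7 lower means and a median difference of −0.26. That median was −0.13 without control 3 and −0.18 without irradiated 1. The list was not of myeloid cells alone, as it held Mag and the B cell genes Siglecg and Cd22. The median over all arrays was the value of Cd22 itself, a gene named after its value was seen. In Adgre5, an adhesion receptor of leukocytes named after its values were seen, the irradiated arrays all lay below the control arrays (difference −0.30, limma adjusted p = 0.262). The sialic acid receptor Cd33 differed by 0.34 (adjusted p = 0.618) and the myelin protein Mag by 0.06 (adjusted p = 0.963). The B cell receptor regulator Siglecg differed by −0.48 (adjusted p = 0.399), the eosinophil and alveolar macrophage marker Siglecf by −0.47 (adjusted p = 0.759), the related receptor Adgre4 by −0.40 (adjusted p = 0.812) and Siglece by −0.14 (adjusted p = 0.958).

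Of the 4 members in the colony-stimulating factor system, the shared receptor chain Csf2rb had the largest difference and the ligand Csf1 the smallest. Csf1, the growth factor of macrophages, had log2 values of 11.75, 11.84, 12.00 and 12.10 on control arrays 1 to 4 and of 11.72, 11.92, 11.63, 11.92 and 12.19 on irradiated arrays 1 to 5. The groups lay over each other, and the difference was −0.05 (SE 0.13, 95% confidence interval −0.33 to 0.24, limma adjusted p = 0.969). Its probe was printed on 10 spots, which differed on one array by an SD of 0.015 to 0.061, far below the SD between arrays of 0.16 (n = 4) and 0.22 (n = 5). The other probes of Csf1 gave −0.06 and −0.05. The sign of this difference turned when control 4 (0.014) or irradiated 3 (0.016) was left out, or when irradiated 1 and control 3 were (0.019), and it was −0.01 without irradiated 1 alone, so that no direction can be given.

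Csf1r, the receptor of CSF-1 and interleukin 34, had log2 values of 15.44, 15.17, 15.37 and 15.49 on the control arrays and of 15.20, 15.62, 15.60, 15.38 and 15.50 on the irradiated arrays. The difference was 0.09 (SE 0.11, limma adjusted p = 0.874), and its 95% confidence interval of −0.15 to 0.33 leaves room for a mean from 0.902-fold to 1.25-fold that of the control arrays. It was 0.15 without irradiated 1, 0.16 without irradiated 1 and control 3, and 0.02 without control 2. The other probes of Csf1r gave 0.15 and −0.06.

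Csf2ra, the ligand-specific chain of the GM-CSF receptor, had log2 values of 14.76, 14.46, 14.27 and 14.71 on control arrays 1 to 4 and of 14.33, 15.04, 14.69, 14.71 and 14.91 on irradiated arrays 1 to 5. The groups overlapped, with irradiated 1 among the lowest values, and the difference was 0.19 (SE 0.15, 95% confidence interval −0.15 to 0.53, limma adjusted p = 0.790). It moved to 0.29 without irradiated 1 and to 0.20 without irradiated 1 and control 3, and it was 0.09 without control 3 and 0.11 without irradiated 2. Csf2rb, the signalling chain shared by the receptors of GM-CSF, interleukin 3 and interleukin 5, had log2 values of 13.42, 12.76, 12.87 and 12.97 on the control arrays and of 13.03, 13.73, 13.42, 13.75 and 13.54 on the irradiated arrays. Irradiated 1 and irradiated 3 lay within the control range, below control 1, and the difference was 0.49 (SE 0.17, 95% confidence interval 0.10 to 0.88, limma adjusted p = 0.343). Without irradiated 1 it was 0.60 (limma adjusted p = 0.110), and without irradiated 1 and control 3 it was 0.56 (adjusted p = 0.249). The second probe of Csf2rb gave 0.40 (adjusted p = 0.666). The near-identical neighbour gene Csf2rb2 gave 0.50 (adjusted p = 0.547), and probes of these genes could read each other's transcript.

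Of 9 other ligands and receptors of this family, 0 passed the threshold, and 6 had a higher and 3 a lower mean, with a median difference of 0.36. The median was 0.05 over the 7 of them whose probe exceeded background clearly on each of the 9 arrays. The second ligand of Csf1r, Il34, differed by 0.43 (adjusted p = 0.400) and the interleukin 3 receptor chain Il3ra by 0.37 (adjusted p = 0.529). The GM-CSF gene Csf2 differed by −0.07 (adjusted p = 0.987), the interleukin 5 receptor chain Il5ra by −0.20 (adjusted p = 0.869) and the G-CSF receptor Csf3r, which neutrophils carry, by −0.20 (adjusted p = 0.831). The differences of the ligand genes Csf1 and Csf2 were both smaller than their standard errors.

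Of 16 genes of CSF signalling and macrophage transcription, 0 passed the threshold, and 11 had a higher and 5 a lower mean, with a median difference of 0.18. The feedback inhibitor Socs3 spanned 12.52 to 13.29 in the control group and 12.76 to 15.13 in the irradiated group, a difference of 1.29 (adjusted p = 0.327). Tfec, a macrophage transcription factor, differed by 0.90 (adjusted p = 0.342) and Bhlhe40, which supports the self-renewal of alveolar macrophages, by 0.78 (adjusted p = 0.270). Pparg, the GM-CSF-induced master regulator of alveolar macrophages, differed by −0.10 (adjusted p = 0.799), Stat5b, the transducer of GM-CSF signals, by −0.09 (adjusted p = 0.762) and Cebpa by −0.27 (adjusted p = 0.777). Over the 5 lists of related genes, 61 genes were tested and 0 were called, 18 had an unadjusted p under 0.05 (14 higher and 4 lower, beside 7.37% and 4.98% of all genes), and the median difference was 0.17, beside 0.01 for all genes.

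**Figure D3:**
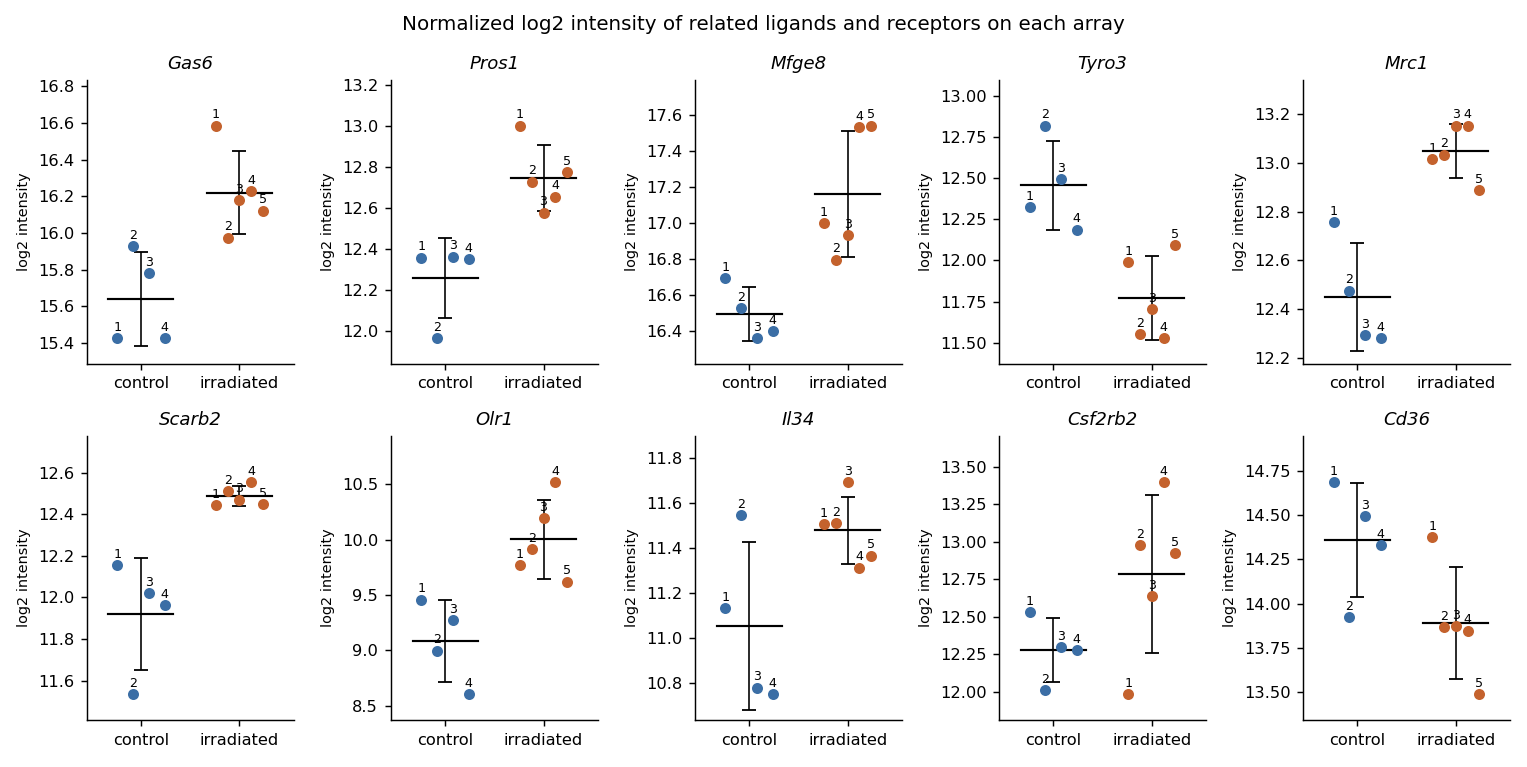
Log2 quantile-normalized signal of related genes on the 4 control and 5 irradiated arrays, drawn as in the plot of the members, with group means and SDs. Gas6, Pros1 and Mfge8 lie higher and Tyro3 lower on every irradiated array than on any control array.

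The arrays were also compared within scan pairs. The vertical position of the first spot on the scanner image, which is written in the files, put 8 of the 9 arrays into 4 pairs of mutual nearest neighbours, each of 1 control and 1 irradiated array (control 1 with irradiated 2, control 2 with irradiated 3, control 3 with irradiated 4, control 4 with irradiated 5), and irradiated 1 was left without a partner. The gaps within pairs were 3.93, 1.29, 2.02 and 3.51 position units, and irradiated 1 was 3.86 units from its nearest array, closer than the widest pair. The horizontal position differed within each pair and was not used. The median local background of paired arrays was 27 and 25.5, 43.5 and 45.5, 36 and 35, and 24 and 24 units. The labels do not say what the position marks, and these pairs come from the image, not from the numbers of the arrays.

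Within the 4 pairs, 8 members were higher on the irradiated array in 4 of 4 pairs, as were 17.9% of all genes, and 17.3% of all genes were lower in 4 of 4. For Msr1 the difference ran from 1.19 to 2.36, for Adgre1 from 0.48 to 1.12, for Siglec1 from 0.45 to 0.97, for Csf2rb from 0.31 to 0.88 and for Mertk from 0.28 to 0.42. Mertk, whose groups overlapped, thus had the narrowest range within pairs of these 5 genes. For Csf2ra it ran from 0.21 to 0.43, for Axl from 0.07 to 0.72 and for Csf1r from 0.01 to 0.43. Marco was lower in 4 of 4 pairs, from −2.44 to −0.48, and Csf1 was higher in 2 of 4, from −0.21 to 0.17.

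With the scan pair as a fixed block, which drops irradiated 1, Msr1 (1.56, limma adjusted p = 0.042), Adgre1 (0.86, adjusted p = 0.042) and Mertk (0.36, adjusted p = 0.044) passed the threshold, which 3.82% of all genes passed (2.26% with a higher and 1.56% with a lower mean). Csf2rb (adjusted p = 0.051) and Siglec1 (adjusted p = 0.059) just missed it. With the pair as a random block, which keeps irradiated 1, 5 members passed: Msr1 (1.49, limma adjusted p = 0.0046), Adgre1 (0.80, adjusted p = 0.0072), Siglec1 (0.68, adjusted p = 0.0088), Csf2rb (0.56, adjusted p = 0.021) and Mertk (0.35, adjusted p = 0.029). In that fit 9.45% of all genes passed (5.65% with a higher and 3.8% with a lower mean). Marco did not pass in either fit (adjusted p = 0.185 and 0.194). Of the related genes, the fixed block called higher 2 TAM and uptake genes and 2 other scavenger receptors. It also called higher 1 CSF ligand or receptor and 3 CSF signalling genes. It called lower 1 CSF signalling gene and 1 Siglec or adhesion receptor. The random block called 5, 4, 3 and 4 genes of these lists higher, in that order. It called lower 1 TAM or uptake gene, 1 other scavenger receptor and 1 Siglec or adhesion receptor.

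**Figure D4:**
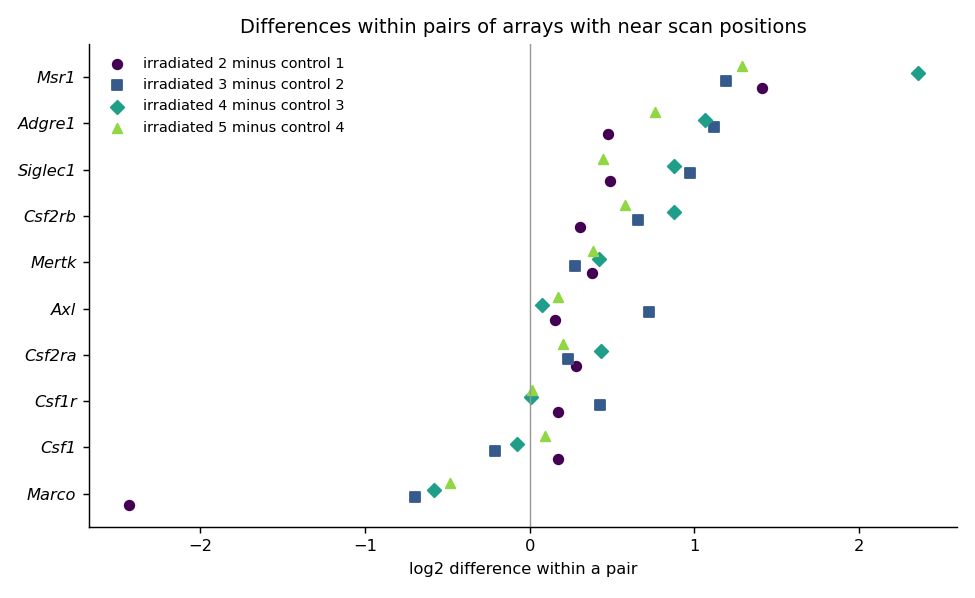
Irradiated minus control difference (log2) of each member within each of the 4 scan pairs. Marco is below 0 in 4 of 4 pairs, Csf1 lies on both sides of 0, and the other 8 members are above 0 in 4 of 4 pairs.

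The markers of the cells that carry these receptors were set beside them. Of 13 pan-macrophage markers tested, 1 rose past the threshold, the lectin Lgals3 (0.74, limma adjusted p = 0.046), named after its value was seen. In this list 12 of 13 had a higher mean, the median difference was 0.44, and the summed level lay between 284020 and 377753 in the control group and between 317457 and 443646 in the irradiated group. Irradiated 1 had the lowest irradiated sum and the other 4 irradiated arrays lay above every control array. The 12 interstitial macrophage markers had 0 calls, 9 higher means and a median difference of 0.27, with sums of 115310 to 134155 and 112096 to 182919. Here irradiated 1 had the lowest sum, and the 4 other irradiated arrays, at 170510 to 182919, lay above every control array. As a mean of log2 values, which weights bright and dim markers alike, irradiated 1 (11.46) lay within the control range of 11.30 to 11.89, and so did irradiated 5 (11.64). That placement of irradiated 5 did not hold over the 11 of these markers well above background on all 9 arrays. Over them, irradiated 5 (12.51) lay above the control range of 12.09 to 12.49, and irradiated 1 (12.10) lay within it. Without irradiated 1, where 1.65% of all genes passed, 2 interstitial (both higher), 1 pan-macrophage (higher) and 3 alveolar macrophage markers (2 higher, 1 lower) passed the threshold. With the scan pair as a fixed block, where 2.26% of all genes passed higher and 1.56% lower, 6 interstitial and 6 pan-macrophage markers passed with a higher mean, and with it as a random block (5.65% and 3.8% of all genes) 5 and 5 did, beside 1 pan-macrophage marker with a lower mean. Of the alveolar macrophage markers, 1 passed higher and 1 lower with the fixed block, and 4 and 2 with the random block. Irradiated 1 was also the lowest irradiated array for 5 of the 10 members (Msr1, Csf1r, Adgre1, Csf2ra and Csf2rb) and the highest for Marco. The part of these markers in the results was not tested.

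The 16 alveolar macrophage markers had 0 calls, 8 higher and 8 lower means and a median difference of 0.01, with sums of 284081 to 559525 and 367702 to 575750. The list was mixed, with the protease Ctsk at 1.70 (adjusted p = 0.065) and the lipid droplet gene Cidec at −1.75 (adjusted p = 0.187), both without overlap and named after their values were seen. Marco, itself a gene of alveolar macrophages, therefore stood beside markers of both signs. For other myeloid cells, the 10 monocyte markers tested had 0 calls, a median difference of −0.12 and sums of 68788 to 96183 and 51121 to 74588. The 10 neutrophil markers tested had 0 calls, a median difference of −0.52 and sums of 270301 to 471492 and 236978 to 343318. The 7 dendritic cell markers tested had 0 calls, a median difference of 0.32 and sums of 17045 to 19741 and 13269 to 23274. T cell (median −0.02), B cell (−0.38), lung epithelium (0.06), endothelium (−0.16) and fibroblast (0.12) markers had 0 calls each, as did cardiac (−1.07) and skeletal muscle (−1.21) markers. The muscle medians rested on 1 array each, and were −0.20 for the cardiac markers without irradiated 1 and 0.08 for the skeletal muscle markers without control 3. Other medians also moved. Without control 3 they were 0.13 for dendritic cell, 0.01 for fibroblast, −0.07 for monocyte and 0.08 for alveolar macrophage markers. Without irradiated 1 they were 0.46 for dendritic cell, 0.08 for T cell, 0.02 for lung epithelium and −0.03 for alveolar macrophage markers. Without irradiated 1 (1.09% of all genes higher and 0.569% lower), 1 dendritic cell marker passed higher and 1 cardiac marker lower. With the scan pair as a fixed block (2.26% of all genes higher and 1.56% lower), 1 dendritic cell marker passed higher. In that fit 1 endothelium and 1 cardiac marker passed lower. With the scan pair as a random block (5.65% of all genes higher and 3.8% lower), 1 dendritic cell marker passed higher. There 3 B cell, 2 monocyte, 2 neutrophil, 1 endothelium, 1 lung epithelium and 1 cardiac marker passed lower. Every marker tested was well above background on at least 1 array, and their part in the members' values was not tested.

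**Figure D5:**
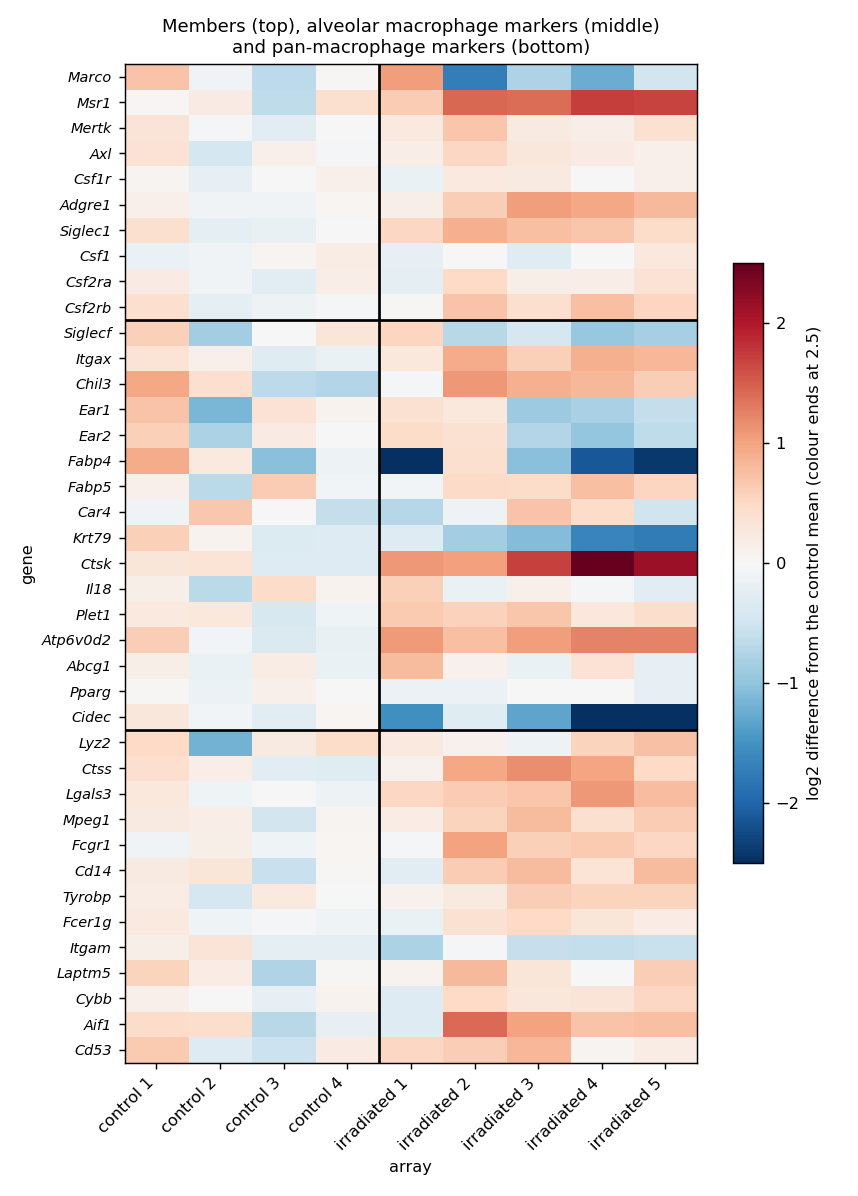
Log2 signal of each member on each array minus the mean of the 4 control arrays (colour scale, log2), with the alveolar macrophage markers and the pan-macrophage markers below the members and lines between the lists and the groups. Msr1, Adgre1, Siglec1, Csf2rb, Mertk and Axl are above the control mean on all 5 irradiated arrays, and Marco runs from 1.04 on irradiated 1 to −1.72 on irradiated 2 relative to it.

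Marco had the widest range over the arrays among the members. Of 19657 other genes compared, the 5 whose centred log2 values lay nearest to it over the 9 arrays were Tex29 (root mean square distance 0.43), Pgr (0.43), Gm4567 (0.44), Slc38a4 (0.46) and Ppp2r2b (0.47). Tex29 was not well above background on any array and Gm4567 was so on 3 of 9, while the other 3 were on all 9. The highest value of Slc38a4, an amino acid transporter, was on irradiated 1 (9.72), as it was for Marco, and irradiated 4 (7.87) was its lowest. The likeness is a description of these 9 arrays, which are the same for every gene compared, and carries no test.

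The arrays themselves ordered the members in part. Irradiated 1 was the lowest irradiated array for 5 of the 10 members (Msr1, Csf1r, Adgre1, Csf2ra and Csf2rb) and the highest for Marco, and irradiated 2 was the highest for 5. Control 1 was the highest control array for 7 of the 10. Among the 8 members with a higher mean, the lowest of all 9 arrays was control 2 or control 3 for every one. The cause of this order was not tested.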

How the data were processed

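Total RNA from lung was measured on 9 Agilent 1-colour mouse arrays (4 control, 5 irradiated); the triplicate experiments of a time point were pooled before labelling. The authors deposited Feature Extraction output for each array as intensity: a processed, background-corrected signal, a median signal and a local background per spot. They also deposited a table of quantile-normalized intensity, used as an alternative. The spot numbers in the array files did not match that table (rank correlation −0.006 to 0.005), so spots were numbered by image position, which gave a rank correlation of 1.

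Control and outlier spots were left out. Probes were kept where the median signal exceeded 1.4 times the local background on 4 or more of 9 arrays (39303 of 39429). Log2 values of the processed signal were quantile normalized, and spots of a probe were averaged. Symbols came from a RefSeq table (GRCm38.p6), which named 26055 probes (66.1%), and a gene was read from its brightest probe. Probes without a symbol stayed in the fit. Groups were compared with limma 3.58.1 (R 4.3.3), using eBayes with an intensity trend, without covariates and with two-sided Benjamini-Hochberg adjustment over all probes kept. Between 72.8% and 89.1% of gene spots on an array were well above background and none were saturated, and precision is limited by the number of arrays.

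The members and lists were chosen with earlier results of these data known. From the lists, every gene past the threshold was to be named, and otherwise the 3 largest and 3 smallest differences of genes well above background on all 9 arrays. Of the listed genes, Cd68, Clec7a, Ly6c2, Zbtb46, Itgae, Ly6g and Scgb3a2 were not found through the table. For the widest-ranging member, the 5 genes at the smallest distance were named. Alternatives were normexp background correction (offset 50), 75th-percentile scaling, a filter on all 9 arrays or none, the authors' table, no trend, array weights, the mean of all probes, each array left out, the array number as a block and the scan pair as a fixed or random block; leaving out control 3 and irradiated 1 together was chosen after seeing the data. Arrays with the same number in both groups had correlations of their deviations of 0.06, −0.02, −0.05 and −0.17, so the numbers were not taken as pairs.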

Additional observations from a re-analysis of the deposited data

Results flagged for a closer look

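Over the mean log2 level of each list and the value of each member, 56 groups of arrays were searched for 1 array that lay far off, and 6 (10.7%) held one, where chance gives about 1 in 20. Irradiated 1 had the lowest irradiated level of the CSF ligands and receptors (9.17, the others 9.52 to 9.65), of the B cell markers (10.07, the others 10.17 to 10.21) and of the cardiac muscle markers (8.37, the others 12.72 to 13.53). Control 1 had the highest control level of the TAM ligands and genes of the uptake of dying cells (11.54, the others 11.33 to 11.37) and of the alveolar macrophage markers (13.86, the others 13.29 to 13.34). Control 3 had the highest control level of the skeletal muscle markers (11.78, the others 6.32 to 6.92). None of the 10 members had such an array in either group, and the causes were not tested. For the CSF and TAM lists the array stood apart through genes that were not well above background on all arrays: Csf3 and Il5 on irradiated 1 (2.68 and 3.39) and Havcr1 on control 1 (7.22, the other control arrays 3.81 to 4.74). Over the genes well above background on all 9 arrays, irradiated 1 (10.93) was not the lowest irradiated array of the CSF list (irradiated 3, 10.87), and control 1 (11.82) was not the highest control array of the TAM list (control 2, 11.84).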

How the results depend on the processing

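The 82 calls over the genes and the 0 calls among the members and among the related genes were recomputed under 20 other settings and 1 chosen after seeing the data. The number of genes past the threshold was 130 with the filter on all 9 arrays, 25 in the authors' table, 17 without the intensity trend, 127 with array weights, 753 with the scan pair as a block and 1861 with it as a random block, and 65 to 110 in the other settings that kept all arrays or left out control 3 and irradiated 1. It ran from 5 to 326 with 1 array left out: 25, 11, 5 and 8 without control 1 to 4, and 326, 12, 6, 8 and 16 without irradiated 1 to 5. Members past the threshold were 3 with the scan pair as a block, 5 with it as a random block, 2 without control 3 and irradiated 1, and 0 to 2 with 1 array left out, 2 only without irradiated 1. At an unadjusted p under 0.05, 5 members were past the threshold (12.3% of all genes), against 3 in the authors' table (5.60%) and with the replicate block (10.3%), 3 without control 2 (11.8%) or control 3 (10.6%), and 7 and 8 with the scan pair as a fixed (24.6%) and a random block (26.7%). Related genes past the threshold were 10 and 19 with the scan pair as a fixed and a random block, and 0 to 1 with 1 array left out, 1 each without control 1 and without irradiated 1. With the array number as a replicate block, 1 gene and 0 members passed. The difference of Csf1 turned sign without control 4 (0.014), without irradiated 3 (0.016) and without control 3 and irradiated 1 (0.019), and ran from −0.12 to 0.016 with 1 array left out. The other 9 members kept their sign in all 21 alternatives, Msr1 between 0.88 and 1.56, Adgre1 between 0.43 and 0.86 and Marco between −1.27 and −0.36. The lowest values of Msr1 and Adgre1 came from the authors' table, where Mertk was 0.22. The causes of these changes were not tested.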
